A study of Homo sapiens with 9 samples.

Results

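Messenger RNA of 10 genes for the synthesis of serine, one-carbon units, asparagine and proline was compared between 3 kinds of HEK293 cells, a human embryonic kidney cell line. The genes are PHGDH, PSAT1, PSPH, SHMT1, SHMT2, MTHFD1, MTHFD2, MTHFD1L, ASNS and ALDH18A1, taken by symbol from a count table of 26485 genes. The table held all 10, and all 10 passed the filter on low counts. Addback cells were UBE3D knockout cells to which UBE3D had been returned, KO cells had UBE3D knocked out by CRISPR/Cas9, and WT cells kept the gene. Each group had 3 poly(A) RNA libraries. All were grown in DMEM with serum. The labels mark every sample as pooled, and they do not say whether KO cells were 1 clone, how UBE3D was returned, or whether the 3 libraries are separate cultures. The p-values therefore measure only a spread between libraries that may be technical. UBE3D encodes a ubiquitin ligase studied here for its relation to CPSF73, the nuclease that cuts messenger RNA precursors at the poly(A) site.

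Cells make serine from a glycolytic intermediate through the enzymes PHGDH, PSAT1 and PSPH. The hydroxymethyltransferases SHMT1 in the cytosol and SHMT2 in mitochondria move a carbon from serine to folate, leaving glycine, and the MTHFD enzymes change the oxidation state of that carbon and release or recapture it as formate for purine, thymidylate and methionine synthesis. ASNS makes asparagine and ALDH18A1 takes the first committed step from glutamate to proline. Several of these genes are known targets of ATF4, the transcription factor of the integrated stress response.

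The libraries held 23088295 to 37508780 counts, and the 10 genes had between 658 and 10765 counts in a library. Tissue-restricted genes had counts in addback and WT libraries and few in KO libraries. Among 572 tissue-restricted genes, such as odorant receptors, 95.5% to 96.2% had a count in the addback libraries, 14.7% to 17.0% in KO libraries and 95.5% to 96.0% in WT libraries. The background estimated from these counts, taken to scale with coding length, was 0 in KO libraries for all 10 genes. It reached 10.1% of the MTHFD1L count in addback libraries and 14.3% in WT libraries, the largest shares of any of the 10. Results with this background subtracted are given for some genes and comparisons, and its part in the results was otherwise not tested. Libraries were therefore scaled over 7757 genes whose background was at most 10% of their mean, called low-background genes, and all 10 genes are among them. Levels are CPM on these scaled library sizes (scaled CPM), fold changes are log2 ± standard error, and a gene was called where its edgeR quasi-likelihood p, adjusted by Benjamini-Hochberg over 21994 genes, was under 0.05. UBE3D itself was at 3350, 3290 and 2750 scaled CPM in addback libraries, 13.2, 15.8 and 14.5 in KO libraries and 19.5, 21.4 and 26.6 in WT libraries. KO cells still held UBE3D RNA, with a log2 fold against WT of -0.62 ± 0.13 (edgeR adjusted p = 0.00407). The HEK293 markers VIM, KRT8, KRT18, NEFL, LIN28B and IRS4 were each at 96.1 scaled CPM or more in every library, NEFM was at 17.8 to 29.8, and PAX2 was at 10.9 to 16.7 in addback, 2.04 to 3.5 in KO and 10.3 to 17.6 in WT libraries. Some differed between groups, with IRS4 at 305 to 347 in addback, 158 to 243 in KO and 808 to 863 in WT libraries. VIM was at 908 to 987, 1230 to 1520 and 629 to 665 in the same order, while LIN28B stayed at 96.1 to 108. PTPRC, CD3E, ALB, APOA1 and DCN, markers of blood, liver and fibroblasts, were at most 0.444 in any KO library and reached 16.0 in addback and 43.6 in WT libraries (both PTPRC). COL1A1 was at 38.3 to 65.1 and LUM at 1.41 to 5.12 over all libraries.

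Set per kilobase of exon so that genes can be compared, PHGDH RNA had the highest mean of the 10 and PSPH the lowest in each of the 3 groups, though the PHGDH and SHMT2 libraries overlapped in KO. PHGDH averaged 106.3 ± 4.73 scaled CPM per kilobase in addback, 89.8 ± 4.82 in KO and 98.6 ± 5.28 in WT libraries (SD, n = 3 each). PSPH, the last enzyme of the same route, averaged 13.7 ± 0.49, 13.3 ± 0.97 and 14.3 ± 0.25 in addback, KO and WT libraries. Over all 9 libraries PHGDH lay above 93.4% of low-background genes and PSPH above 33.1%. SHMT2 and MTHFD1 followed PHGDH in every group, and the libraries of SHMT2 and MTHFD1 overlapped in WT and stood apart in addback and KO. MTHFD2 came next in addback and KO libraries, at 65.3 ± 2.09 and 63.3 ± 2.43 scaled CPM per kilobase. In WT libraries the mean of MTHFD2 ranked below those of ALDH18A1 and PSAT1, at 50.05 ± 2.21, and its libraries overlapped with those of both genes. ASNS stood above SHMT1 in addback libraries, overlapped with it in KO libraries and lay below it in WT libraries.

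**Figure D1:**
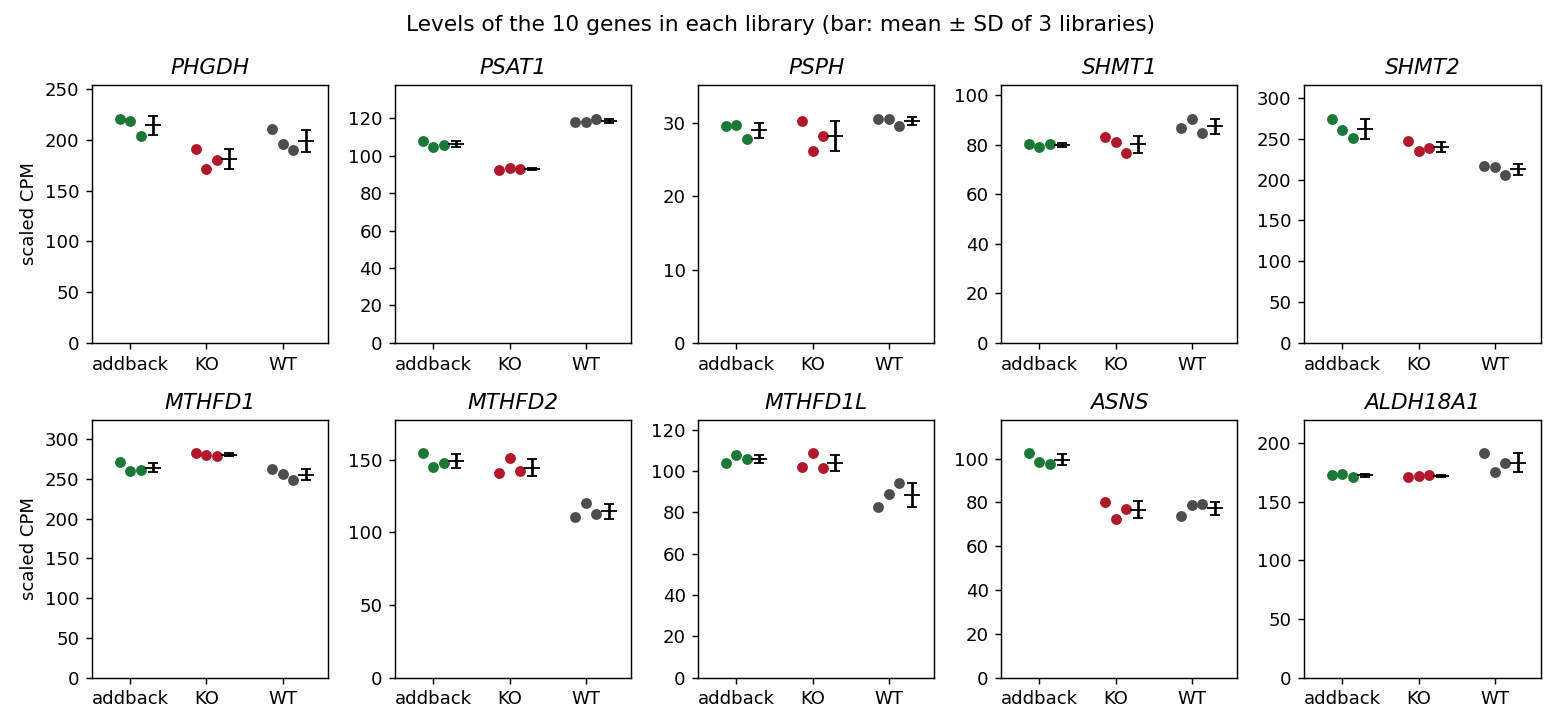
Scaled CPM (linear axes from 0) of each gene in the 3 addback, 3 KO and 3 WT libraries (points) with the mean and SD of each group (bars). SHMT2, MTHFD2 and MTHFD1L were higher in all addback and KO libraries than in all WT libraries, while PSAT1, SHMT1 and ALDH18A1 were lower there. ASNS was higher in addback libraries than in both other groups.

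The start sites of 4 of these genes are shown because their folds are among the largest of the 10 and because an ATF4-type element could be searched for there. The letters are the 250 bases before a RefSeq start site (GRCh38.p14), 5′ to 3′ on the strand of the gene. Capitals mark TGATGNAA, the core of the C/EBP-ATF response element bound by ATF4 and its partners, and CCAAT, the box bound by NF-Y.
ASNS, chr7:97872409-97872658, minus strand: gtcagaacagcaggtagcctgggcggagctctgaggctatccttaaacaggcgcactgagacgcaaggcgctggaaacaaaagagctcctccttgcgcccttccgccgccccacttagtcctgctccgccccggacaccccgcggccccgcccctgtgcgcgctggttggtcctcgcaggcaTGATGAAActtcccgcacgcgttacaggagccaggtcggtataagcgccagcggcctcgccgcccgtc
MTHFD1L, chr6:150866236-150866485, plus strand: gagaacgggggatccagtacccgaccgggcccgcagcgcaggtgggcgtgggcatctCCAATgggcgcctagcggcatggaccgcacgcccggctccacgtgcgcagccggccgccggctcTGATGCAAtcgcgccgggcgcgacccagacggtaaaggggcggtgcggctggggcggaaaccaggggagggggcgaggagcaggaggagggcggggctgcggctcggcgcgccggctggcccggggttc
MTHFD2, chr2:74198365-74198614, plus strand: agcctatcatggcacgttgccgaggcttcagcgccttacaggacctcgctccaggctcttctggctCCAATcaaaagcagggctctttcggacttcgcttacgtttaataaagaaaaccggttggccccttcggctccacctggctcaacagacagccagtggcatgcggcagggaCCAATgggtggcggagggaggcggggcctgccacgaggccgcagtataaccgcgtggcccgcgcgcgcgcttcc
PSAT1, chr9:78296875-78297124, plus strand: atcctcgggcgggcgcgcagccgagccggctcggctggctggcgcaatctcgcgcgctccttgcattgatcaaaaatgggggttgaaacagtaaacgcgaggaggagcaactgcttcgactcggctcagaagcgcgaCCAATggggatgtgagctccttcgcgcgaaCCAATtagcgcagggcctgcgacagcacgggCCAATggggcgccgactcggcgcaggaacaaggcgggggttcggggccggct
The search covered both strands of windows from 250 bases before to 50 bases after the start site, for the 8 of the 10 genes with an entry. The TGATGNAA letters were in 3.62% of 35116 RefSeq promoters and the CCAAT letters in 34.6%. Both motifs were searched apart and do not share letters in these windows. ASNS had TGATGAAA at -68 to -61 from its start, and MTHFD1L had TGATGCAA at -129 to -122 and CCAAT at -193. Both genes have further start sites in RefSeq. For ASNS the window with a TGATGNAA match is shown, and for MTHFD1L the first listed of 3 overlapping windows that hold the same letters, which lie at -90 to -83 and at 25 to 32 from the other starts. Another ASNS window and another MTHFD1L window held no TGATGNAA. A gene with several windows has more chances of a match, which the share of 3.62% per promoter does not take into account. PSAT1 had no TGATGNAA in this window and CCAAT at -113, -83 and -52. MTHFD2 likewise had no TGATGNAA, and had CCAAT at -184 and -74. Of the other 4 genes with an entry, PHGDH, MTHFD1 and SHMT1 held CCAAT, and none of the 4 held TGATGNAA. These matches are letters in a window, and binding was not measured.

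KO against WT compared knockout cells with cells that kept UBE3D. Loss of UBE3D and other differences between these cells cannot be told apart in this comparison. The mitochondrial one-carbon genes SHMT2, MTHFD2 and MTHFD1L rose in KO libraries, as did the cytosolic MTHFD1, while PSAT1, SHMT1 and ALDH18A1 fell. PHGDH, PSPH and ASNS did not pass the test. So 4 of the 10 were called higher and 3 lower, with a median log2 fold of -0.05. Among low-background genes 49.6% were called in this comparison, 23.4% higher and 26.2% lower, with a median of -0.02. Among all tested genes 62.0% were called, 9.46% higher and 52.5% lower, with a median of -0.47. With libraries scaled by TMM over all genes 5 of the 10 were called higher and 0 lower, and of all tested genes 5315 higher and 8227 lower, against 2080 and 11553 with the scaling used here. DESeq2 also called 5 of the 10 higher and 0 lower. The KO and WT libraries did not overlap for 7 of the 10 genes, against 58.4% of low-background genes and 70.6% of all tested genes.

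Addback against KO compared cells to which UBE3D had been returned with knockout cells. Return of UBE3D and other differences between these cells cannot be told apart here either. ASNS rose most, PHGDH, PSAT1 and SHMT2 rose too, and MTHFD1 fell. PSPH, SHMT1, MTHFD2, MTHFD1L and ALDH18A1 did not pass the test, and their log2 folds lay between -0.01 and 0.04. So 4 were called higher and 1 lower, with a median of 0.04. Among low-background genes 38.2% were called, 18.2% higher and 19.9% lower, with a median of 0.00. Over all tested genes 56.8% were called, 49.1% higher and 7.66% lower. TMM over all genes called 0 of the 10 higher and 3 lower, DESeq2 0 and 5, and upper quartile factors 1 and 1, so the direction here rests on the scaling. Of all tested genes TMM over all genes called 8364 higher and 4791 lower, against 10810 and 1685. Groups did not overlap for 5 of the 10, against 55.2% of low-background genes and 72.1% of all tested genes.

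Addback against WT shows which differences from WT were seen in cells with UBE3D at a high level. SHMT2, MTHFD2, MTHFD1L and ASNS were called higher in addback libraries and PSAT1 lower, with a median log2 fold of 0.08 over the 10. The share called was 22.5% of low-background genes, 10.1% higher and 12.5% lower, and 9.26% of all tested genes, 4.37% higher and 4.88% lower. The median was -0.01 over low-background genes. Groups did not overlap for 7 of the 10, against 43.8% of low-background genes and 20.9% of all tested genes. Same-numbered addback and WT libraries varied together, and with the replicate number as a block PHGDH was called higher as well, by 0.12 (edgeR adjusted p = 0.0275), which gives 5 higher and 1 lower. TMM over all genes called 0 of the 10 in either direction, and DESeq2 called 4 higher and 0 lower. Of all tested genes TMM over all genes gave 375 higher and 191 lower, against 962 and 1074. These 3 comparisons share libraries pairwise, so each is given with its own values.

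**Figure D2:**
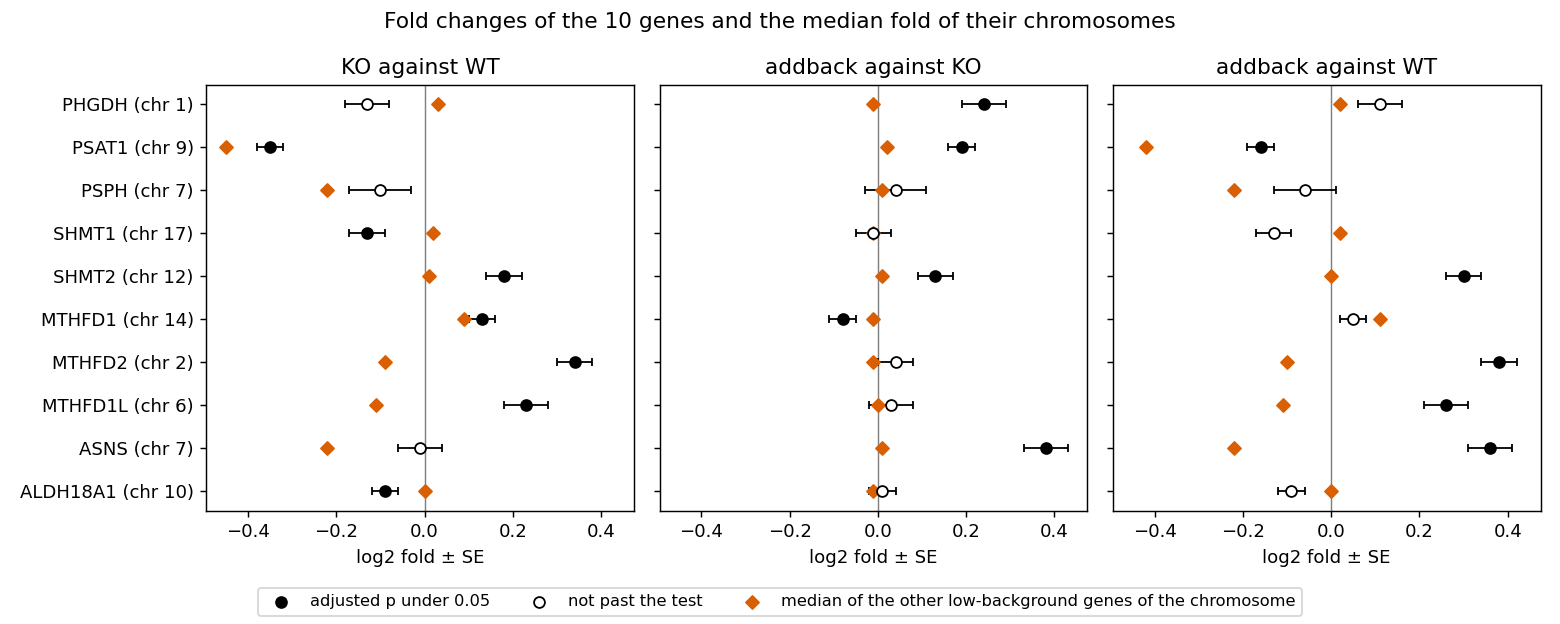
Log2 fold change ± SE of each gene in the 3 comparisons, 1 per panel (filled circles, edgeR adjusted p under 0.05; open circles, not past the test). Diamonds are the median log2 fold of the other low-background genes of the same chromosome, which lie at -0.45 for chromosome 9 and -0.22 for chromosome 7 in KO against WT.

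Of the serine synthesis genes PSAT1 was called in all 3 comparisons, PHGDH in 1 and PSPH in none. PSAT1 (chr9:78297075-78330093, plus strand, hg38), the aminotransferase of the route, was at 108, 105 and 106 scaled CPM in addback libraries, 92.3, 93.7 and 93.0 in KO libraries and 118, 118 and 119.9 in WT libraries. The 3 groups did not overlap, with KO lowest, addback between and WT highest. PSAT1 was lower in KO than in WT (log2 fold -0.35 ± 0.03, edgeR adjusted p = 0.000115), higher in addback than in KO by 0.19 ± 0.03 (edgeR adjusted p = 0.00201) and lower in addback than in WT (log2 fold -0.16 ± 0.03, edgeR adjusted p = 0.00712). The fold in KO against WT was -0.02 (edgeR adjusted p = 0.911) under TMM over all genes and -0.10 (DESeq2 adjusted p = 0.299) under DESeq2, and the fold in addback against KO turned to -0.11 and -0.07. With the estimated background subtracted the folds were -0.4 in KO against WT and 0.25 in addback against KO. The authors' deposited table gives PSAT1 a log2 fold of -0.09 ± 0.08 in KO against WT (adjusted p = 0.301). PSAT1 lies on chromosome 9, where 96.4% of the 305 other low-background genes were below 0 in KO against WT, with a median of -0.45. Addback against WT gave a median of -0.42 for that chromosome, while in addback against KO it was 0.02. The PSAT1 fold in KO against WT was above that of 66.2% of these neighbours. With libraries scaled over the low-background genes of chromosome 9 alone, PSAT1 was at 0.08 in KO against WT (edgeR adjusted p = 0.0719), at 0.17 in addback against KO and higher in addback than in WT by 0.25 (edgeR adjusted p = 0.0003).

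PHGDH (chr1:119711796-119744226, plus strand), which catalyses the first step, was at 221, 218 and 203 scaled CPM in addback libraries, 191, 172 and 180.4 in KO libraries and 210.4, 196 and 189.8 in WT libraries. Addback and KO libraries stood apart, while KO and WT overlapped. PHGDH was higher in addback than in KO by 0.24 ± 0.05 (edgeR adjusted p = 0.00567), a fold that turned to -0.06 under TMM over all genes and -0.02 under DESeq2. With the estimated background subtracted PHGDH was higher in addback than in KO by 0.31. Its difference in KO against WT was -0.13 ± 0.05 (edgeR adjusted p = 0.0566), just outside the threshold. That fold passed the threshold under 7 of the 12 other settings tried, at -0.13 to -0.24, and it was 0.19 under TMM over all genes. PSPH (chr7:56011051-56051575, minus strand), the phosphatase that ends the route, was at 29.6, 29.7 and 27.8 scaled CPM in addback, 30.3, 26.15 and 28.2 in KO and 30.6, 30.5 and 29.65 in WT libraries. It passed the test in none of the 3 comparisons. Its log2 fold was -0.10 ± 0.07 for KO and -0.06 ± 0.07 for addback, both against WT, and 0.04 ± 0.07 between addback and KO. With the fewest counts, PSPH had the largest standard error of the 10. PSPH was the 1 gene of the 10 with a region downstream of its end in the authors' deposited table of readthrough regions. In the authors' deposited table that region, chr7:56000182-56011051, had a log2 fold of -0.31 ± 0.15 in KO against WT (adjusted p = 0.0639), and of 0.08 ± 0.15 in addback against KO (adjusted p = 0.672).

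SHMT2 rose while SHMT1, its cytosolic counterpart, fell in KO against WT. SHMT2 (chr12:57229573-57234935, plus strand) was at 275, 261 and 250.4 scaled CPM in addback libraries, 247, 235 and 238 in KO libraries and 217, 216 and 205 in WT libraries, and no 2 groups overlapped. It was higher in KO than in WT by 0.18 ± 0.04 (edgeR adjusted p = 0.0061), in addback than in KO by 0.13 ± 0.04 (edgeR adjusted p = 0.0289) and in addback than in WT by 0.30 ± 0.04 (edgeR adjusted p = 0.00223). Leaving out KO 2, KO 3, addback 1 or addback 2 ended the call of SHMT2 in addback against KO, at 0.09 to 0.13, and that fold turned to -0.17 under TMM over all genes and -0.14 under DESeq2. The same fold was 0.2 with the estimated background subtracted. SHMT1 (chr17:18327860-18363563, minus strand) was at 80.3, 78.9 and 80.0 scaled CPM in addback libraries, 82.85, 80.8 and 76.5 in KO libraries and 86.6, 90.5 and 84.8 in WT libraries. Every KO library lay below every WT library, and SHMT1 was lower in KO than in WT (log2 fold -0.13 ± 0.04, edgeR adjusted p = 0.0237), a call that ended without KO 3, WT 1 or WT 2, at -0.09 to -0.11. It turned to 0.21 under TMM over all genes and 0.13 under DESeq2. SHMT1 was at -0.13 ± 0.04 in addback against WT (edgeR adjusted p = 0.0895) and at -0.01 ± 0.04 in addback against KO. Exons of SHMT1 share 591 bases, 23.1% of their length, with SMCR8 on the other strand. Likewise SHMT2 shares 297 bases, 10.4%, with NDUFA4L2, and MTHFD1 shares 178 bases, 5.16%, with ZBTB25. SMCR8 averaged 105 ± 2.89 scaled CPM in KO and 88.7 ± 4.14 in WT libraries and was called higher in KO, while NDUFA4L2 stayed below 3 on average in each group. Use of strand in the counting is not given in the sources used here, so the reads of overlapping genes may be mixed. Pseudogene copies exist for some of the 10 genes, such as PSPHP1 for PSPH, and how reads shared with copies were counted is likewise not given.

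The ratio of the 2 isozymes within a library does not depend on how libraries are scaled. Per kilobase, SHMT2 made up 75.3%, 74.7% and 73.63% of the summed SHMT1 and SHMT2 level in addback libraries, 72.7%, 72.2% and 73.56% in KO libraries and 69.1%, 68.0% and 68.3% in WT libraries. All KO and addback libraries lay above all WT libraries, and the lowest addback library lay just above the highest KO library. The share was higher by 4.33 percentage points in KO than in WT and by 1.74 points in addback than in KO (exact permutation p = 0.1 each, two-sided, the smallest that 3 against 3 libraries allow). With the estimated background subtracted, KO exceeded WT by 3.62 points, and by 2.84 points with 2 times that background subtracted.

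Of the 3 folate interconversion genes, the mitochondrial pair rose most in KO. MTHFD2 (chr2:74198563-74215297, plus strand), a mitochondrial dehydrogenase and cyclohydrolase that is prominent in proliferating cells, was at 154, 145 and 148 scaled CPM in addback libraries, 141, 151 and 142 in KO libraries and 110.5, 120.1 and 112.5 in WT libraries. Addback and KO libraries overlapped, and both groups lay wholly above WT. MTHFD2 rose by 0.34 ± 0.04 in KO against WT (edgeR adjusted p = 0.000947) and was 0.38 ± 0.04 higher in addback than in WT (edgeR adjusted p = 0.000935). Its difference in addback against KO was 0.04 ± 0.04 (edgeR adjusted p = 0.41). In KO against WT MTHFD2 lay above 96.9% of the 545 other low-background genes of chromosome 2, and its call there held under each alternative and without each library. With the estimated background subtracted its fold in KO against WT was 0.29, and with 2 times it subtracted 0.23.

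MTHFD1L (chr6:150865679-151101887, plus strand), the mitochondrial synthetase that releases formate, was at 104, 108 and 106 scaled CPM in addback libraries, 102, 108.5 and 101 in KO libraries and 82.7, 88.7 and 94.3 in WT libraries. All addback and KO libraries were above all WT libraries, while WT libraries spread more widely than the others. MTHFD1L was higher in KO than in WT by 0.23 ± 0.05 (edgeR adjusted p = 0.00442) and in addback than in WT by 0.26 ± 0.05 (edgeR adjusted p = 0.0134), and the second call ended without addback 2, at 0.24 (edgeR adjusted p = 0.0593). The WT background share of MTHFD1L was 3.2%, 8.49% and 14.3% in WT 1, WT 2 and WT 3, in the order of its WT levels. Its fold in KO against WT was 0.28 with the background subtracted. MTHFD1 (chr14:64388041-64460007, plus strand), the cytosolic enzyme with all 3 folate activities, was at 271, 259.9 and 262 scaled CPM in addback libraries, 282, 279.8 and 279 in KO libraries and 262.5, 256 and 248.5 in WT libraries. KO libraries were highest, apart from both other groups. MTHFD1 was higher in KO than in WT by 0.13 ± 0.03 (edgeR adjusted p = 0.00547), beside a median of 0.09 for its chromosome 14 neighbours. It was lower in addback than in KO (log2 fold -0.08 ± 0.03, edgeR adjusted p = 0.0412), a call that ended when any 1 library other than addback 1 was left out, at -0.07 to -0.09. With 2 times the estimated background subtracted that fold was 0.02. Its difference in addback against WT was 0.05 ± 0.03 (edgeR adjusted p = 0.563).

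ASNS (chr7:97852117-97872542, minus strand), asparagine synthetase, was at 102, 98.6 and 97.7 scaled CPM in addback libraries, 80.3, 72.6 and 76.8 in KO libraries and 73.8, 79.0 and 79.2 in WT libraries. All 3 addback libraries were above the other 6, among which KO and WT overlapped. ASNS was higher in addback than in KO by 0.38 ± 0.05 (edgeR adjusted p = 0.00174) and than in WT by 0.36 ± 0.05 (edgeR adjusted p = 0.00157), and it was at -0.01 ± 0.05 in KO against WT (edgeR adjusted p = 0.806). Chromosome 7, its own, had a median of -0.22 over 357 other low-background genes in KO against WT. Scaled over that chromosome alone, ASNS was higher in KO than in WT by 0.20 (edgeR adjusted p = 0.00721). ALDH18A1 (chr10:95605929-95656810, minus strand), the entry enzyme of proline synthesis, was at 172, 174 and 171.5 scaled CPM in addback libraries, 171, 172 and 172.5 in KO libraries and 191, 175 and 183 in WT libraries. Addback and KO libraries differed little, and both groups lay below all WT libraries. ALDH18A1 was lower in KO than in WT (log2 fold -0.09 ± 0.03, edgeR adjusted p = 0.0423). That call ended when any 1 library other than WT 2 was left out, at -0.04 to -0.10, and the fold turned to 0.24 under TMM over all genes and 0.16 under DESeq2. Its difference in addback against KO was 0.01 ± 0.03. In bulk RNA, fewer cells that express a gene and less RNA of it per cell cannot be told apart, for any of the 10.

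The direction of several of these genes depends on the scaling. TMM over all tested genes set the median of low-background genes to 0.32 in KO against WT and to -0.30 in addback against KO, rather than near 0. Under it MTHFD2 was at 0.68, MTHFD1L at 0.57, SHMT2 at 0.51 and MTHFD1 at 0.47 in KO against WT, all above that median. PHGDH, PSPH, SHMT1 and ALDH18A1 came to 0.19, 0.23, 0.21 and 0.24, below that median, and ASNS to 0.33, level with it, so that these 5 changed sign. PSAT1 came to -0.02, the lowest of the 10 and no longer called. In addback against KO the same scaling put ASNS at 0.08 and PHGDH at -0.06, still the highest of the 10, and neither passed the test there. SHMT2, MTHFD1, MTHFD2 and MTHFD1L had folds above 0 in KO against WT under every scaling tried, but not every call held. MTHFD1L was at 0.16 (edgeR adjusted p = 0.0616) when scaled over the 2950 genes with the least background, and MTHFD1 at 0.04 (edgeR adjusted p = 0.317) when scaled over its own chromosome. With 2 times the estimated background subtracted, SHMT2 and MTHFD1 were both at 0.05 and neither was called. The authors' deposited table gives MTHFD2 a log2 fold of 0.56 ± 0.09 in KO against WT (adjusted p = 7.15e-10). In the authors' deposited table ASNS is at 0.23 ± 0.08 in KO against WT (adjusted p = 0.0067) and at 0.11 ± 0.08 in addback against KO (adjusted p = 0.21). There SHMT1, MTHFD1, MTHFD2, MTHFD1L and ALDH18A1 are lower in addback than in KO, each with adjusted p under 0.05. Their log2 folds are -0.25, -0.32, -0.2, -0.23 and -0.23, while PHGDH, PSAT1, PSPH and SHMT2 do not pass 0.05.

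**Figure D3:**
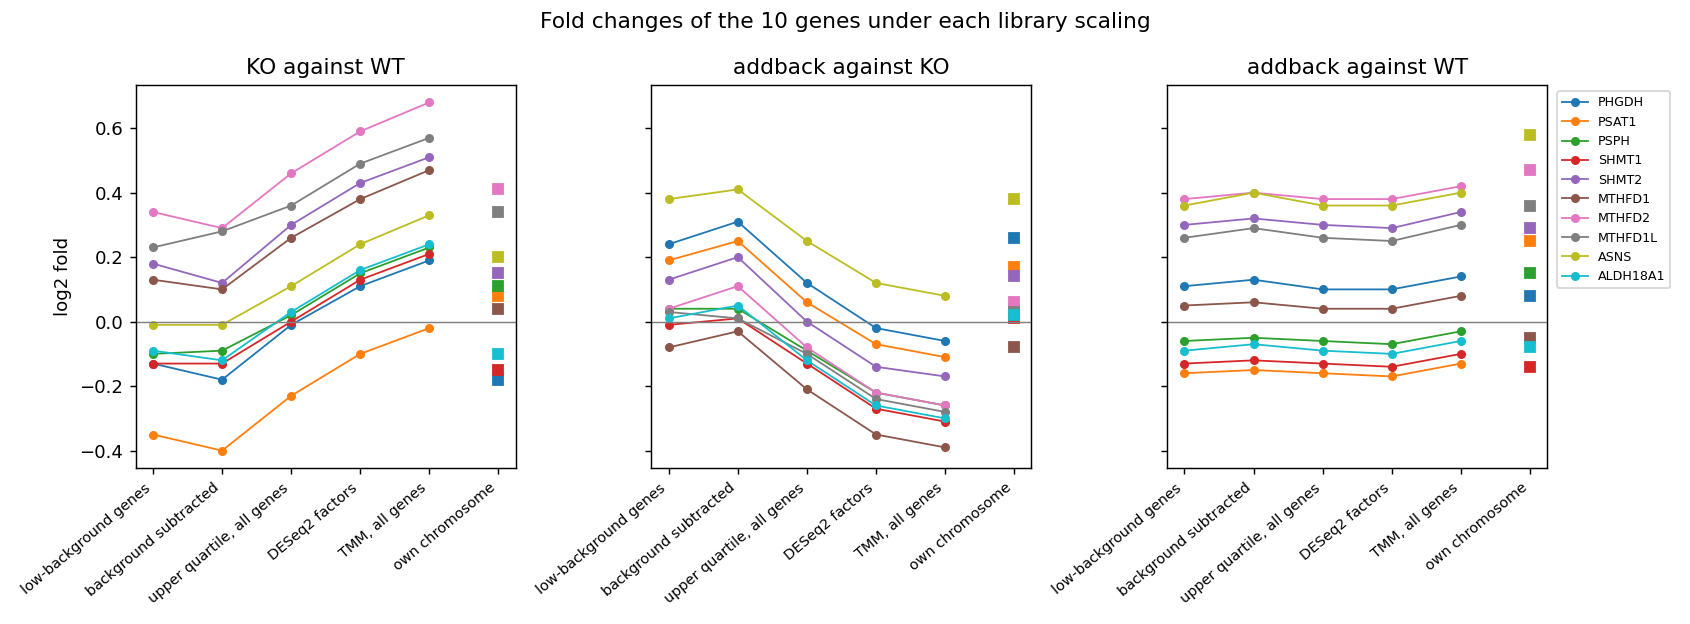
Log2 fold of each gene in the 3 comparisons under 5 settings, background subtraction among them (joined circles), and under scaling over the low-background genes of its own chromosome (squares). In KO against WT every gene rises from the scaling used here over upper quartile and DESeq2 factors to TMM over all genes, where MTHFD2 reaches 0.68. In addback against WT the first 5 settings differ little.

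Genes of neighbouring pathways were counted from lists of known members, to be read beside the shares called over low-background genes, 23.4% higher and 26.2% lower in KO against WT. Among 19 stress response regulators, 8 were called higher and 3 lower in KO against WT, with a median log2 fold of 0.17. Of 11 amino acid transporters 6 were higher and 3 lower, and of 20 cytosolic aminoacyl-tRNA synthetases 9 were higher and 2 lower, with medians of 0.12 and 0.08. Under TMM over all genes the counts were 12 higher and 0 lower regulators, 7 and 2 transporters, and 17 and 0 synthetases. ATF3, a stress-induced transcription factor, averaged 71.4 ± 6.2 scaled CPM in KO and 30.0 ± 0.48 in WT libraries and rose by 1.25 ± 0.07 (edgeR adjusted p = 2.38e-05). SLC3A2, the heavy chain shared by several transporters, averaged 122 ± 6.87 in KO and 70.3 ± 1.92 in WT libraries and rose by 0.79 ± 0.06 (edgeR adjusted p = 9.34e-05). The 3 transporters called lower in KO had a background share above 10%, and the largest of these folds, SLC7A3, belonged to a gene whose estimated background was 90.7% of its mean.

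In addback against WT 12 of the 19 regulators were called higher and 1 lower, 7 of the 11 transporters were higher and 0 lower, and 7 of the 20 synthetases were higher and 1 lower. The medians were 0.58, 0.37 and 0.09, beside shares of 10.1% higher and 12.5% lower over low-background genes. Among the 15 low-background regulators 11 were higher and 1 lower, and among the 7 low-background transporters 6 were higher and 0 lower. TMM over all genes gave 9 and 0 regulators, 4 and 0 transporters, and 2 and 0 synthetases. ATF3 averaged 106 ± 6.11 scaled CPM in addback against 30.0 ± 0.48 in WT libraries, higher by 1.82 ± 0.07 (edgeR adjusted p = 2.46e-06). SLC3A2 was higher there by 1.06 ± 0.06 (edgeR adjusted p = 1.73e-05). In addback against KO the counts were 11 higher and 2 lower regulators, 8 higher and 0 lower transporters, and 4 higher and 1 lower synthetases, beside 18.2% higher and 19.9% lower over low-background genes. Of these 8 transporters SLC7A11, SLC7A3, SLC6A9 and SLC43A1 had background shares of 17.7% to 90.7%, and among the 7 low-background transporters 4 were higher. Among the 15 low-background regulators 9 were higher and 2 lower. With the estimated background subtracted 5 transporters were higher, and 3 with 2 times it subtracted. EIF2AK2, an interferon-induced kinase of the stress pathway, led the regulators there, at 215 ± 28.3 in addback and 64.5 ± 2.56 in KO libraries, a rise of 1.73 ± 0.09 (edgeR adjusted p = 2.25e-05). AARS, the alanyl-tRNA synthetase, was at 223 ± 7.15 in addback and 158 ± 11.2 in KO libraries, and rose by 0.50 ± 0.05 (edgeR adjusted p = 0.00115). AARS was lower in KO than in WT, with a log2 fold of -0.30 ± 0.05 (edgeR adjusted p = 0.00209). Under TMM over all genes 0 of the 20 synthetases were called lower in KO against WT. Under TMM over all genes addback against KO had 3 higher and 5 lower regulators, 4 and 2 transporters, and 0 and 12 synthetases, with medians of -0.03, -0.03 and -0.32.

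For the pathways that make or use one-carbon units and related amino acids, the direction of the calls changed with the scaling. Of 10 purine synthesis genes 3 were called higher and 2 lower in KO against WT, with GART, which takes up formyl groups in purine synthesis, at 244 ± 10.7 scaled CPM in KO and 203 ± 6.3 in WT libraries and a rise of 0.26 ± 0.04 (edgeR adjusted p = 0.00137). ADSL, a later enzyme of the route, fell by 0.34 on the log2 scale to 101 ± 0.88 in KO libraries, against 128 ± 2.64 in WT libraries (edgeR adjusted p = 0.000315). Of 18 genes of the folate cycle and glycine cleavage 1 was higher and 7 lower in KO against WT. Among the 11 of these 18 with low background 1 was higher and 3 lower, and ALDH1L1 and ALDH1L2, which led the lower calls, had background shares of 51.2% and 47.7%. Of 5 genes of the methionine cycle and transsulfuration 0 were higher and 2 lower. Among the 3 of these 5 with low background 0 were higher and 1 lower. For proline, glutamate and aspartate synthesis the counts were 3 higher and 5 lower of 11, with GOT2, the mitochondrial aspartate aminotransferase, at 331 ± 15.0 in KO and 272 ± 12.5 in WT libraries, a rise of 0.28 ± 0.05 (edgeR adjusted p = 0.00204). Among the 9 of these 11 with low background 3 were higher and 3 lower. In addback against WT the purine list had 1 higher and 1 lower, the folate list 0 higher and 4 lower, and the proline list 1 higher and 1 lower. In addback against KO the counts were 2 higher and 3 lower purine genes, 7 higher and 3 lower folate genes, and 2 higher and 3 lower proline genes. Among the 11 low-background folate genes 2 were higher and 3 lower there, and among the 9 low-background proline genes 1 and 3. Under TMM over all genes KO against WT had 8 higher and 0 lower purine genes, 6 and 5 folate genes, 2 and 1 methionine genes, and 4 and 1 proline genes. Addback against KO then had 0 higher and 6 lower purine genes, 3 and 7 folate genes, and 2 and 4 proline genes.

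**Figure D4:**
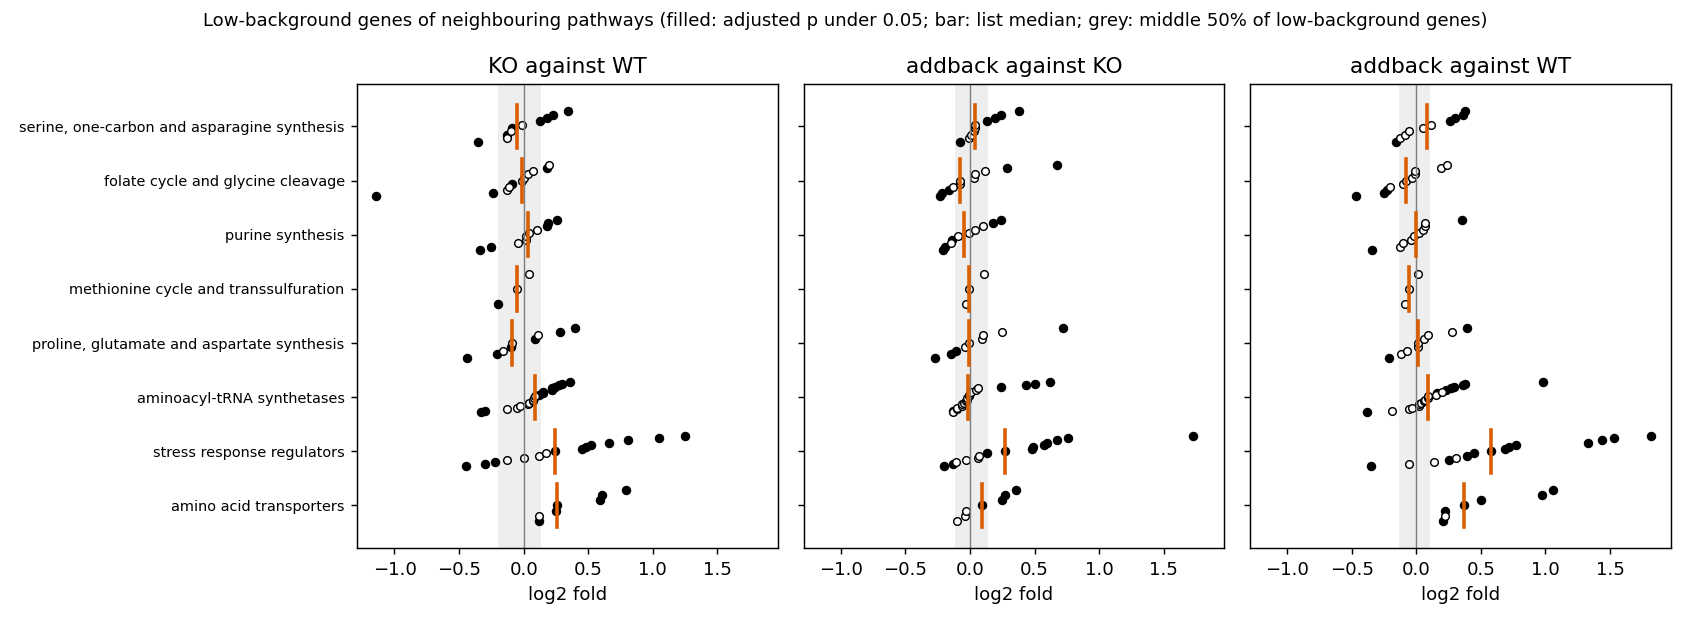
Log2 folds of the low-background genes of each list in the 3 comparisons (filled points, edgeR adjusted p under 0.05; orange bars, list medians; grey band, the middle 50% of all low-background genes). The medians of the stress regulators and transporters lie to the right of the band in both comparisons with WT, at 0.24 and 0.26 and at 0.58 and 0.37, and the 10 genes of serine, one-carbon and asparagine synthesis spread over both sides of 0.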

How the data were processed

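Poly(A) RNA of 9 HEK293 libraries (3 addback, 3 KO, 3 WT) was analysed. Per the submitters' processing notes, the build was hg38 and the programs were DESeq2, STAR 2.5.2b and cutadapt 1.8.1. The counting program, its use of strand and its annotation were not given in the sources used here. Raw counts per gene come from the authors' deposited count table, with gene lengths as another column, and KO.U in its column names was taken as addback. The authors' deposited result tables give base means (signal, normalized by the authors), log2 folds with standard errors, test scores and p-values, and were only quoted. No sample column went unused (0).

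The 10 genes and all lists were chosen with earlier results of these data known. Background was set by 572 tissue-restricted genes, chosen by symbol, as their median count per coding kilobase, with GENCODE v29 coding lengths (19129 genes matched, 531 by another symbol). The fit used edgeR 4.0.16 (R 4.3.3). After filterByExpr 21994 genes remained, TMM factors came from 7757 low-background genes (background at most 10% of mean CPM, coding sequence at least 10% of exon length), and 1 robust quasi-likelihood fit over 9 libraries gave the contrasts, adjusted by Benjamini-Hochberg. The threshold was 0.05. The fitting steps were tested on simulated data. Scaled CPM are CPM computed on the scaled library totals. All 10 genes are named, and of each list up to 2 genes per direction by size of fold, except that some list genes are not reported here. Alternatives were other scalings, DESeq2 1.42.0, background subtraction, no filter, fits of 2 groups with and without a replicate block, and leaving out libraries.

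Same-numbered libraries were checked by the correlation of their residuals over low-background genes. It was 0.59, 0.30 and 0.63 for addback and WT, so these may be paired, which is read from the data and not from the labels. The values given for addback against WT are from the fit without pairing, except where the block is named. Estimated background per coding kilobase was also lowest in number 1 of both groups. It was 22.68, 106.88 and 101.98 counts in addback and 25.52, 84.64 and 96.96 in WT libraries. Its part in the correlation was not tested. The correlation was 0.06, 0.01 and 0.07 for KO and WT, and 0.01, 0.09 and 0.18 for addback and KO, which were not taken as paired. No 2 libraries of a group were copies (chi-square per degree of freedom 2.52 to 14.0). Exact permutation tests compared the SHMT2 share.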

Additional observations from a re-analysis of the deposited data

How the results depend on the processing

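Leaving out 1 library at a time kept direction and call for 157 of 180 folds of the 10 genes, lost 18 calls and gained 2, and 3 uncalled folds changed sign: ASNS in KO against WT to 0.02, and in addback against KO PSPH to -0.01 (range -0.01 to 0.09) and SHMT1 to 0.02 (range -0.04 to 0.02). The counts of genes called higher stayed at 4 in KO against WT and ran from 3 to 4 in both addback comparisons, and those called lower ran from 1 to 3, 0 to 1 and 1 to 1. The SHMT2 share in KO minus WT ran from 3.95 to 4.64 points and in addback minus KO from 1.35 to 2.20 points. Of 360 folds under the other 12 settings, 267 kept direction and call, 35 lost a call, 13 gained one and 45 changed sign.

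TMM over all genes called 0 lower in KO against WT, 0 higher and 3 lower in addback against KO, and none, 0 either way, between addback and WT; PHGDH, PSPH, SHMT1, ASNS and ALDH18A1 were then at 0.19, 0.23, 0.21, 0.33 and 0.24 in KO against WT, and PHGDH, PSAT1, PSPH, SHMT2, MTHFD2, MTHFD1L and ALDH18A1 at -0.06, -0.11, -0.26, -0.17, -0.26, -0.28 and -0.30 in addback against KO. DESeq2 gave 0 lower in both comparisons with WT, and 0 higher and 5 lower in addback against KO, with the same genes at 0.11, 0.15, 0.13, 0.24 and 0.16, and at -0.02, -0.07, -0.22, -0.14, -0.22, -0.24 and -0.26. Upper quartile factors gave 1 lower in KO against WT, 1 higher in addback against KO and 0 lower in addback against WT, with PSPH, ASNS and ALDH18A1 at 0.02, 0.11 and 0.03 in KO against WT and PSPH, MTHFD2, MTHFD1L and ALDH18A1 at -0.09, -0.08, -0.10 and -0.12 in addback against KO. Scaling over the gene's own chromosome put PSAT1, PSPH and ASNS at 0.08, 0.11 and 0.20 in KO against WT, SHMT1 at 0.01 in addback against KO, PSAT1, PSPH and MTHFD1 at 0.25, 0.15 and -0.05 in addback against WT, and left 0 lower there.

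Subtracting the estimated background left 0 lower in addback against KO, put SHMT1 there at 0.01 and the share in KO minus WT at 3.62 points. Subtracting 2 times it called 2 higher in KO against WT and 0 lower in both addback comparisons, put SHMT1, MTHFD1 and MTHFD1L at 0.02, 0.02 and -0.02 in addback against KO, and the shares at 2.84 points in KO minus WT and 3.37 points in addback minus KO. The low-background genes fitted alone gave 0 lower in addback against KO and 2 lower in addback against WT. Fits of only the 2 groups compared gave 1 lower in KO against WT and 0 lower in addback against KO. The replicate block gave 4 higher and 2 lower in KO against WT and 0 lower in addback against KO, where same numbers did not pair libraries. Between addback and WT, where same-numbered libraries varied together, the block added PHGDH and changed no other call. Among settings chosen after the data were seen, KO 1 to 3 with addback 1 and WT 1, the libraries of lowest background, gave ASNS 0.05 in KO against WT, SHMT1 0.01 in addback against KO and 0 lower in both addback comparisons, the lone libraries being assumed to vary like KO. Scaling over 2950 genes with background at most 5% of the lowest group mean gave 0 lower and SHMT1 at 0.08 in addback against KO. In addback against WT, TMM over all genes moved the low-background median only from -0.01 to 0.02. The genes called before, SHMT2, MTHFD2, MTHFD1L, ASNS and PSAT1, were then at 0.34, 0.42, 0.3, 0.4 and -0.13. Their standard errors were 0.13, 0.11, 0.09, 0.1 and 0.11, against 0.04, 0.04, 0.05, 0.05 and 0.03 with the scaling used here. What made these standard errors larger, and what caused the other losses, was not tested. At the lowest counts, 658 for PSPH, the depth limits what a small fold can show, and 3 libraries a group limit every test.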
